A study of Mus musculus with 16 samples.

Results

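The comparison described here sets mouse embryonic fibroblasts with reduced Atf5 against control fibroblasts while both were under proteasome inhibition. Its members were all 4 arrays of each line treated with 1 µM MG132 for 8 h, taken by their titles, which makes 8 of the 16 arrays of the series. The knockdown cells stably expressed a short hairpin RNA against Atf5. The control cells were wild type and carried a scramble hairpin. The other 8 arrays, 4 of each line given the vehicle DMSO for 8 h, serve below only to show where the line difference under MG132 was not the same as without it. The labels count 4 plates for each group, as many as there are arrays. The labels name 1 cell population for each genotype, do not say whether it is a clone or pooled, and do not say that plates came from separate cultures. A hairpin effect and any other difference between the lines therefore cannot be told apart, and p-values measure only the spread between plates, which may be technical.

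ATF5 is a basic leucine zipper transcription factor related to ATF4. When kinases that sense misfolded protein, amino acid shortage or other stress phosphorylate the translation initiation factor eIF2, most protein synthesis slows while messages such as those of Atf4 and Atf5 are translated more, and the factors made from them turn on genes for amino acid supply, chaperones and cell death. This programme is called the integrated stress response. MG132 is a peptide aldehyde that blocks the proteasome, so ubiquitinated and misfolded proteins build up and the integrated stress response, the heat shock response and the antioxidant response are switched on together. ATF5 is also known as a factor of the mitochondrial unfolded protein response in mammals.

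Values are log2 probe set intensities, and 1 probe set was used per gene, which gave 19938 genes. A difference is knockdown minus control on the log2 scale, ± the limma standard error, with 4 arrays a group. A gene is called higher or lower where its limma p-value, Benjamini-Hochberg adjusted over all genes, was under 0.05. The arrays of MG132-treated cells had nearly equal medians (7.78 to 7.82 in control, 7.75 to 7.82 in knockdown cells). Arrays of the same group correlated at 0.9928 to 0.9978 and arrays of different lines at 0.9854 to 0.9884. In these cultures fewer cells of a type and less RNA per cell cannot be told apart. Fibroblast markers were bright, with a mean log2 level over 13 genes of 9.85 to 9.86 in control and 9.99 to 10.05 in knockdown arrays. Of those 13 markers 6 were higher and 2 lower, with Thy1 at 0.86 ± 0.05. The 7 marker lists of other cell types held 0 to 4 called genes each. The mean of 11 macrophage markers was 6.70 to 6.76 in control and 6.82 to 6.89 in knockdown arrays, where 1 of 11 was called (Cd14, 1.05 ± 0.07). That of 11 epithelial markers was 7.37 to 7.55 and 7.14 to 7.28, where 3 of 11 were lower, Krt19 the most (-2.08 ± 0.05). For 9 smooth muscle markers it was 8.83 to 8.98 and 8.58 to 8.66, with 4 of 9 lower. Xist, the noncoding RNA of the inactive X chromosome, lay between 12.61 and 12.95 on all 8 arrays. The Y-linked genes Eif2s3y (4.29 to 4.46), Kdm5d (5.83 to 6.03) and Uty (5.33 to 5.61) were dim on all 8.

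The targeted gene was examined first. Atf5 read 8.75, 8.72, 8.68 and 8.91 in the control arrays and 8.45, 8.43, 8.45 and 8.49 in the knockdown arrays. Every knockdown array lay below every control array. The difference was -0.31 ± 0.05, which is 1.24-fold lower (limma adjusted p = 0.000148, exact two-sided permutation p = 0.0286, a floor for groups of this size). Over the main and alternative settings it ranged from -0.34 to -0.25. Most other genes differed by less, since 83.9% of the 19938 line differences were smaller in size. With vehicle the difference of Atf5 was -0.22, and the change from one treatment to the other, -0.09, did not pass (limma adjusted p = 0.509). The position of the probes relative to the hairpin's target was not analysed here.

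Under MG132 the lines differed in a large part of the transcriptome, mostly by little. Of the 19938 genes tested 7588 were called, which is 38.1%: 3536 (17.7%) were higher and 4052 (20.3%) were lower in knockdown cells. The median size of all differences was 0.09. At 1.5-fold or more there were 677 higher (3.4%) and 564 lower genes (2.83%). Differences of 2-fold or more were found in 286 higher (1.43%) and 197 lower genes (0.988%), and of 8-fold or more in 20 higher (0.1%) and 16 lower genes (0.0802%). The arrays of the lines did not overlap in 6915 genes (34.7%). Counts of gene list members called higher or lower below are to be read against these shares, and the median difference over all genes was 0.00.

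The line difference was largely the one already there with vehicle. With vehicle 7848 genes (39.4%) were called. All 483 genes that differed by 2-fold or more under MG132 (2.42%) were called in the same direction with vehicle. Their sizes often changed, since the limma test of the change in the line difference passed in 219 of the 483, against 14.6% of all genes. Of the 7588 genes called under MG132, 5494 were called in the same direction with vehicle and 195 in the opposite one. The remaining 1899 were not called with vehicle, but the test of the change in the line difference passed in only 626 of them. Over all genes that test called 2903 (14.6%), 888 towards higher (4.45%) and 2015 towards lower values in knockdown cells (10.1%), and 29 of them by 2-fold or more. Across the 19938 genes, which are not independent replicates, the differences with and without MG132, which rest on different arrays of the same lines, had a Pearson correlation of 0.901, and Spearman's rho was 0.668.

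**Figure D1:**
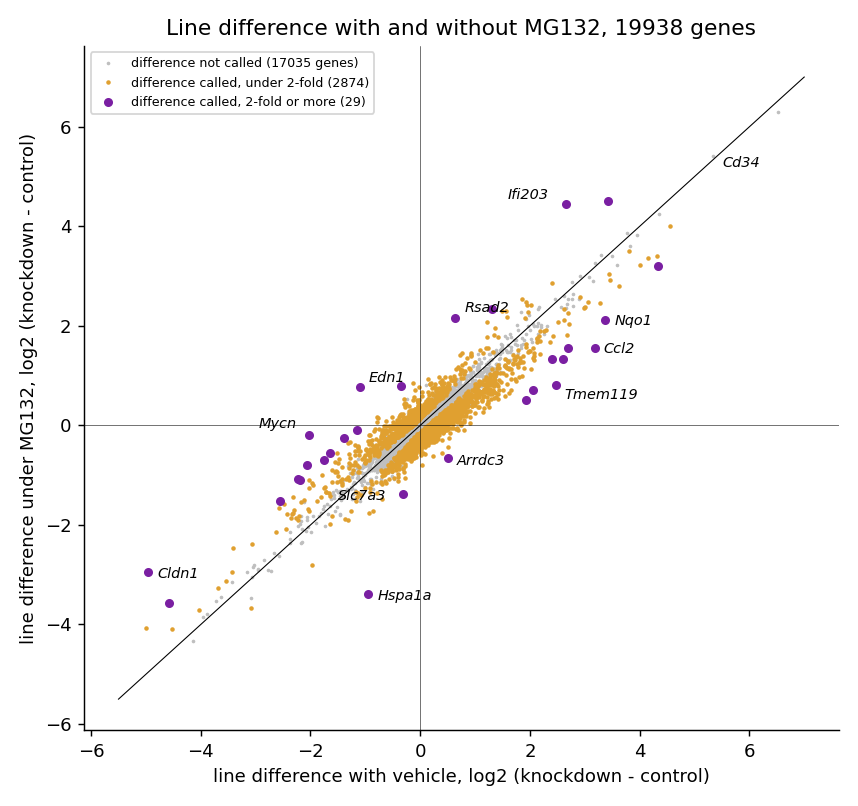
Each point is 1 of 19938 genes, with its line difference (knockdown minus control, log2) with vehicle on the x axis and under MG132 on the y axis, and the diagonal marks equal differences. Most genes lie along the diagonal (Pearson r 0.901); the 29 genes whose difference moved by 2-fold or more, such as Hspa1a, Edn1 and Cldn1, lie off it.

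The genes highest in the knockdown line over control included several surface and secreted proteins. Cd34, a sialomucin of progenitor, endothelial and some stromal cells, read 7.34, 7.20, 7.16 and 7.51 in control and 12.69, 12.78, 12.75 and 12.65 in knockdown arrays. Nothing overlapped, and the difference of 5.42 ± 0.10 was 42.7-fold (limma adjusted p = 1.44e-16). Ifi202b (4.51 ± 0.09) and Ifi203 (4.44 ± 0.11) belong to a family of interferon-inducible genes with very similar paralogs, whose probes may not tell them apart. Their control arrays, at 4.41 to 4.59 and 5.58 to 5.92, were as dim as the Y-linked genes. The control mean of AI506816 (5.21) and the knockdown mean of Nrn1 (5.87), a gene described among the lowest, were as dim, and the sizes of these 4 differences are uncertain for that reason. The neighbouring membrane protein genes Tmem176b (4.25 ± 0.07) and Tmem176a (3.82 ± 0.09) were both higher. So were the matrix genes Efemp1 (4.01 ± 0.06) and Ogn (3.22 ± 0.13). Eng, the TGF-beta co-receptor endoglin, was 12.2-fold higher and Tfpi, which inhibits the tissue factor pathway of clotting, 11.3-fold higher. Gas6, the ligand of the receptor kinases Axl, Mertk and Tyro3, stood at 7.55, 7.76, 7.74 and 7.62 in control and at 10.93, 11.05, 11.14 and 11.01 in knockdown arrays, a difference of 3.37 ± 0.06. The alcohol dehydrogenase gene Adh7 (3.87 ± 0.07), the integrin-signalling adaptor Apbb1ip (3.43 ± 0.13), Gpnmb (3.40 ± 0.08), Psca (3.40 ± 0.09) and the amino acid transporter Slc38a4 (3.26 ± 0.04) complete the 15 highest among genes with a proper gene name. AI506816, left out of that ranking for its accession-like name and named here after its value was seen, had the highest difference of all 19938 genes (6.30 ± 0.12). Where the change of these line differences with MG132 passed the test, it was upward for Ifi203 and Ifi202b (1.79 and 1.09) and downward for Efemp1, Psca, Gas6 and Tfpi.

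The genes lowest in the knockdown line over control included developmental regulators. Pax8, a paired-box factor of kidney and thyroid, read 12.14, 12.25, 12.13 and 12.19 in control and 7.77, 7.89, 7.97 and 7.74 in knockdown arrays. The groups were far apart, at -4.33 ± 0.07 or 20.2-fold (limma adjusted p = 2.11e-17). Lrp2, the endocytic receptor megalin, followed at -4.09 ± 0.05. The potassium channel-interacting gene Kcnip1 stood at -4.08 ± 0.10, the T-box factor Tbx20 at -3.85 ± 0.11 and the mitochondrial fusion gene Miga1 at -3.78 ± 0.10. Lower as well were the lysosomal protease Ctsh (-3.70 ± 0.06), Fam110c (-3.67 ± 0.12), the neuritin gene Nrn1 (-3.56 ± 0.09), Prxl2a (-3.52 ± 0.07), Aff2 (-3.46 ± 0.11) and Fez1 (-3.44 ± 0.05). The imprinted zinc finger gene Peg3 (-3.26 ± 0.07), the retinoic acid-binding Crabp1 (-3.15 ± 0.08) and the factor Sim2 (-3.12 ± 0.08) end the set. Only Hspa1a (-3.39 ± 0.06) among the 15 lowest belongs to the proteotoxic stress response, and it is described with the chaperones.

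The 5 stress genes shown next carry, upstream of their start, the composite C/EBP-ATF element TTGCATCA, the kind of site that ATF4 binds together with C/EBP proteins. They were picked among genes that reappear in the results and hold a motif, so they do not stand for stress genes in general. Their upstream 200 bases are shown in RefSeq's sequence of build GRCm38.p6, each in the gene's own direction with the element in capitals.
Atf3 (chr1:191183334-191183533, minus strand): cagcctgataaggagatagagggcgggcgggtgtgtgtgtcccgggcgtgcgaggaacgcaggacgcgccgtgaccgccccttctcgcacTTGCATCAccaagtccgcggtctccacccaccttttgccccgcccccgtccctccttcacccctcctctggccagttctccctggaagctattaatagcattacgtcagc
Chac1 (chr2:119351042-119351241, plus strand): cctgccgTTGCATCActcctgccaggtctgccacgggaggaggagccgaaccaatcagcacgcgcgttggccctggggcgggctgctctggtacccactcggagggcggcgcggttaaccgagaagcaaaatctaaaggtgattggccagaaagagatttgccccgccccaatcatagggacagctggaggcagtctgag
Herpud1 (chr8:94386229-94386428, plus strand): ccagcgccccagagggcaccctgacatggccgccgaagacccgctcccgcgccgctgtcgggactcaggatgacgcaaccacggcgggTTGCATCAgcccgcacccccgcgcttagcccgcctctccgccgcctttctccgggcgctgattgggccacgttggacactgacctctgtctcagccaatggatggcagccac
Nupr1 (chr7:126625471-126625670, minus strand): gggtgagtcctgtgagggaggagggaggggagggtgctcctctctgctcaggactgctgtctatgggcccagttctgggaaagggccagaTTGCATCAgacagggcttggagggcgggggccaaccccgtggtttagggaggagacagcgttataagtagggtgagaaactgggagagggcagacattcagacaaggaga
Slc7a11 (chr3:50443614-50443813, minus strand): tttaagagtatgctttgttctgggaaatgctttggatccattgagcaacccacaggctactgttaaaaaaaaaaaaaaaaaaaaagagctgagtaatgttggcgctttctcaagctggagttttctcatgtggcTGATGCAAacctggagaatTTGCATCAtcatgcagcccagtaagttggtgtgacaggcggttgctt
The element begins 110 bases before the start in Atf3 and Nupr1, 112 in Herpud1 and 193 in Chac1, and Slc7a11 has it at 47 and, on the opposite strand, at 66 bases.

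The 5 genes did not share a direction between the lines, as their values below show. A RefSeq window from 250 bases before to 50 after the start was at hand for 15614 of the 19938 genes. Searched on both strands, TTGCATCA was in 0.82% of these, in 0.86% of the 2800 higher genes with a window and in 0.76% of the 3290 lower ones. None of the motifs searched contains another. The cyclic AMP response element TGACGTCA was in 2.72% of all, 2.71% of the higher and 4.16% of the lower genes. The heat shock element was in 0.56%, 0.43% and 0.49%, and the antioxidant response element in 0.13%, 0.18% and 0.15%. These shares describe letters in a window and say nothing of binding.

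Genes of the integrated stress response were mostly higher in the knockdown line, by modest amounts, while the death gene Pmaip1 and the feedback factor Atf3 were lower. Of 19 measured effectors 14 were higher and 2 lower, with a median of 0.36. The 2 lower ones were Pmaip1 and Tnfrsf10b (-0.10 ± 0.03). Atf3 is not among the 19 and is counted with the transcription factors below. The lower count was 1 with median centring, and also without control array 1 or without knockdown array 1, 2 or 4. Pmaip1 stayed lower in each of these. Ppp1r15a, which directs dephosphorylation of eIF2, read 11.15, 11.15, 11.19 and 11.24 in control and 12.06, 12.04, 12.11 and 11.97 in knockdown arrays. That is 0.86 ± 0.04 higher without overlap (limma adjusted p = 2.41e-11). Chac1, a glutathione-degrading enzyme, read 11.46, 11.48, 11.49 and 11.58 against 12.25, 12.16, 12.23 and 12.11, again without overlap (0.69 ± 0.04). Nupr1, a small stress-induced nuclear protein, differed by 0.63 ± 0.03 and the growth arrest gene Gadd45a by 0.51 ± 0.03. Trib3, a pseudokinase that restrains ATF4, differed by only 0.28 ± 0.04. For Trib3 and Nupr1 the line difference was smaller under MG132 than with vehicle (a change of -0.37 and -0.65), while for Ppp1r15a it was larger (0.35). Pmaip1, which encodes the death-promoting NOXA, went the other way: control arrays read 8.72, 8.73, 8.71 and 8.54 and knockdown arrays 7.94, 7.77, 7.84 and 7.66. Its difference was -0.87 ± 0.08 (limma adjusted p = 2.29e-07), larger in size than the -0.32 with vehicle (change -0.55, limma adjusted p = 0.0053).

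Of 20 ATF, C/EBP and related basic leucine zipper factors 10 were higher and 4 lower (median 0.13). Atf5, the hairpin's own target, is counted among the 4 lower ones. Atf3, induced by many stresses, read 12.61, 12.63, 12.64 and 12.66 in control and 12.22, 12.22, 12.29 and 12.21 in knockdown arrays. No array overlapped, and the difference was -0.40 ± 0.04 (limma adjusted p = 1.54e-07). Atf4 itself was slightly higher, with 11.46, 11.48, 11.49 and 11.44 against 11.75, 11.76, 11.73 and 11.70 (0.27 ± 0.03). The C/EBP factors Cebpb (0.44 ± 0.04) and Cebpg (0.35 ± 0.04), partners of ATF4, were higher, as was Atf7 (0.37 ± 0.03). Ddit3, which encodes CHOP, was higher by 0.15 ± 0.04 under MG132 and by 0.72 with vehicle. The fall of that gap, -0.57, passed the test (limma adjusted p = 5.35e-06). 

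Amino acid genes downstream of ATF4 were mostly higher, with 2 exceptions among the transporters. Of 22 genes 14 were higher and 2 lower (median 0.17). The transporter Slc38a1 (1.12 ± 0.04), the cystathionine-cleaving enzyme Cth (1.01 ± 0.05) and the cationic amino acid transporter Slc7a1 (0.50 ± 0.04) led the higher ones. Asns, the asparagine synthetase, read -0.06 ± 0.03 and did not pass (limma adjusted p = 0.122), although it did without moderation of the variances (0.00689) and with a trended robust prior (0.0125). Slc7a3, another cationic transporter, stood at 8.58, 8.71, 8.57 and 8.54 in control and at 7.15, 7.07, 7.28 and 7.37 in knockdown arrays. Its level with vehicle had been 7.54 and 7.22, so the gap of -1.38 ± 0.07 was wider under MG132 (change -1.07, limma adjusted p = 1.71e-06). Slc7a11, the light chain of the cystine-glutamate exchanger, read 12.19, 12.26, 12.23 and 12.21 in control and 11.82, 11.77, 11.76 and 11.82 in knockdown arrays. It was lower there (-0.43 ± 0.04), although with vehicle it had been higher (0.51), and the change of sign passed the test (-0.94, limma adjusted p = 3.21e-08). Among 18 cytosolic tRNA synthetases 10 were higher and 4 lower (median 0.14), from Farsb (0.34 ± 0.03) to Kars (-0.34 ± 0.03).

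**Figure D2:**
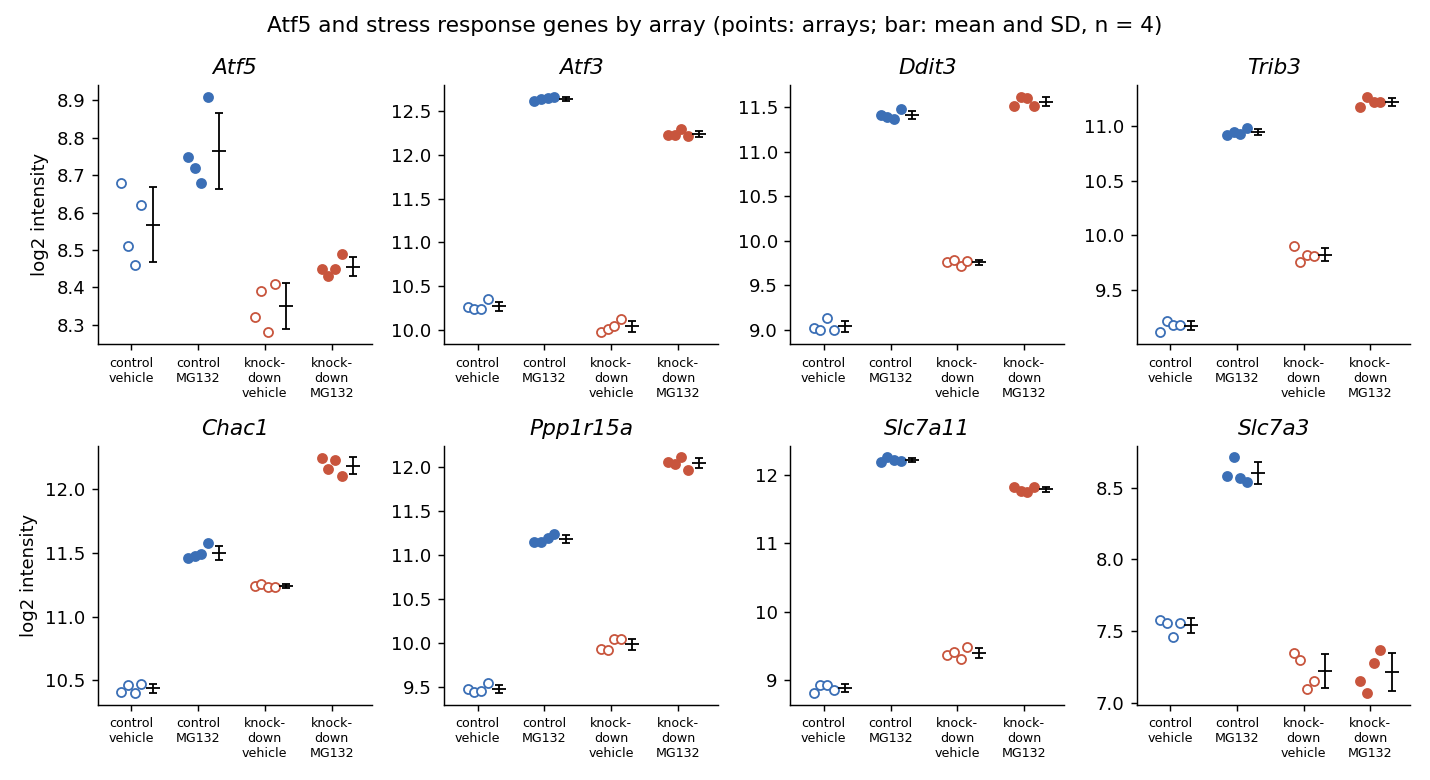
Log2 intensity (y axis, scaled to each gene) of Atf5 and 7 stress genes on each of the 16 arrays, open points with vehicle, filled points with MG132, black bars the mean ± SD of 4 arrays. Under MG132 the knockdown arrays lie above the controls for Ddit3, Trib3, Chac1 and Ppp1r15a and below them for Atf5, Atf3, Slc7a11 and Slc7a3.

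Cytosolic chaperones leaned lower. Of 22 measured 10 were lower and 4 higher (median -0.08, against 0.00 over all genes). Hspa1a, the inducible HSP70, read 12.27, 12.42, 12.38 and 12.31 in control and 9.12, 8.96, 8.92 and 8.82 in knockdown arrays. The groups were far apart, at -3.39 ± 0.06 or 10.5-fold (limma adjusted p = 3.99e-17). With vehicle the difference was -0.95, and the change of -2.44 was the most negative of all 19938 genes (limma adjusted p = 7.55e-12). The size depended on the probe set: one that Hspa1a shares with its near-identical neighbour Hspa1b averaged 13.81 in control and 12.55 in knockdown cells, a difference of -1.25 under MG132 and of -1.09 with vehicle. How strongly the inducible HSP70 differed between the lines is therefore uncertain for the gene pair, while both probe sets were lower. The widening under MG132 is uncertain too, since the shared probe set had nearly the same difference in both treatments. Hspb1, the small heat shock protein HSP27, stood at 13.20, 13.28, 13.27 and 13.29 in control and at 12.69, 12.41, 12.45 and 12.38 in knockdown arrays. That was -0.78 ± 0.05 without overlap, wider than with vehicle by -0.51 (limma adjusted p = 0.000296). Also lower were Hspa2 (-0.85 ± 0.04), the HSP40 co-chaperone Dnajb1 (-0.37 ± 0.03) and the nucleotide exchange factor Hsph1 (-0.13 ± 0.03). Higher were Hspb8 (0.84 ± 0.05), a partner of chaperone-assisted autophagy, and Hspa4l (0.82 ± 0.04), both with smaller gaps than with vehicle (changes of -0.32 and -0.43). The constitutive HSP70 gene Hspa8 read 0.02 ± 0.03 and did not pass.

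Other quality control systems differed little. Of 34 proteasome subunit genes 11 were higher and 6 lower, with a median of 0.02 and a range of -0.26 to 0.36. Psma5 (0.36 ± 0.03) and Psmd6 (-0.26 ± 0.03) were the extremes. Psmb5, the catalytic subunit that MG132 blocks most, read -0.05 ± 0.04, and the regulatory subunit Psmd12 -0.05 ± 0.03. Neither passed. The 18 mitochondrial chaperones and proteases included 5 higher and 2 lower genes (38.9% called in all, close to the 38.1% of all genes), and the lower count was 1 with median centring, with the replicate block, and without control array 1, 2 or 3 or knockdown array 1, 2 or 4. Of these the matrix protease Lonp1 (0.26 ± 0.04), the co-chaperone Grpel1 (0.29 ± 0.05) and Htra2 (0.23 ± 0.04) were higher and Clpp (-0.16 ± 0.03) lower. The mitochondrial chaperonins Hspd1 (-0.01 ± 0.03) and Hspe1 (0.01 ± 0.05) did not pass, and the Hspd1 arrays of both lines lay between 13.46 and 13.52. In the endoplasmic reticulum 8 of 23 genes were higher and 4 lower (median 0.03), but 5 were higher without control array 4 or without knockdown array 2 or 3. Herpud1, a degradation factor, was higher (0.57 ± 0.04), as was the stress sensor Ern1 (0.37 ± 0.03). The co-chaperone Dnajb9 (-0.46 ± 0.06) and the disulphide isomerase Pdia6 (-0.32 ± 0.03) were lower. Hspa5, the main chaperone of that compartment, differed by 0.12 ± 0.03. Among 18 ubiquitin and autophagy genes 3 were higher, Gabarapl1 the most (0.40 ± 0.04), and 4 were lower, Becn1 the most (-0.27 ± 0.03), while the receptor Sqstm1 (0.04 ± 0.03) did not pass. With quantile normalization repeated 5 of the 18 were higher.

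Antioxidant genes under the factor NRF2 were counted together with its own gene Nfe2l2 and its regulator Keap1. Of these 27 genes 14 were higher and 5 lower (median 0.10), and 2 stood out. Gsta4, a glutathione transferase for lipid aldehydes, read 9.31, 9.21, 9.04 and 9.00 in control and 11.90, 11.80, 11.72 and 11.76 in knockdown arrays, a difference of 2.65 ± 0.11. Nqo1, a quinone reductase, read 9.96, 10.01, 9.92 and 9.86 against 12.09, 12.08, 12.02 and 12.05. It was 4.35-fold higher (2.12 ± 0.05), where vehicle had 3.37, and the change of -1.25 passed (limma adjusted p = 9.83e-09). Blvrb (0.66 ± 0.04) and the exporter Abcc4 (0.35 ± 0.03) were higher too. Hmox1, the inducible heme oxygenase, differed by 0.14 ± 0.04.

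Genes of the cell death machinery differed in both directions. In the BCL2 family 4 of 16 were higher and 3 lower (median 0.00). Bcl2, which protects mitochondria from permeabilisation, read 10.05, 10.15, 10.13 and 10.11 in control and 9.36, 9.44, 9.35 and 9.45 in knockdown arrays. Its difference was -0.71 ± 0.04 without overlap (limma adjusted p = 1.13e-10), and the change from the -0.55 seen with vehicle did not pass (-0.16, limma adjusted p = 0.0621), although it did in 6 alternatives (limma adjusted p 0.0405 to 0.0493): both filters on dim genes, no moderation, a trended robust prior, and without control array 1 or knockdown vehicle array 2. The protective Mcl1 (0.22 ± 0.03) and Bcl2l1 (0.16 ± 0.04) were higher. So were the death-promoting Bid (0.36 ± 0.04) and Bcl2l11, which encodes BIM and stood at 9.15, 9.25, 9.18 and 8.96 against 9.53, 9.60, 9.62 and 9.55 (0.44 ± 0.06). With vehicle Bcl2l11 had differed by 0.07, and the widening of 0.37 passed (limma adjusted p = 0.00497). Among 24 death receptors, caspases and inhibitors 8 were higher and 4 lower (median 0.04), or 2 lower with median centring. Casp4, the inflammatory caspase that senses bacterial lipopolysaccharide, read 7.08, 7.42, 7.37 and 7.26 in control and 9.99, 9.78, 9.82 and 9.75 in knockdown arrays, a difference of 2.55 ± 0.09. The death receptor Fas was 2.85-fold higher, with 7.11, 6.95, 7.13 and 6.93 against 8.50, 8.48, 8.65 and 8.54. Both gaps were wider than with vehicle (changes of 0.70 and 0.42). The receptor Tnfrsf1a (0.75 ± 0.05) and the caspase inhibitor Cflar (0.31 ± 0.08) were higher, although its other 2 probe sets differed by 0.18 and 0.17 (exact two-sided permutation p = 0.114 and 0.0857). The apoptosome genes Apaf1 (-0.70 ± 0.05) and Casp9 (-0.24 ± 0.04) were lower.

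Targets of p53 were lower more often than higher, 8 against 5 of 17, with a median of -0.12. Perp, a junction protein linked to apoptosis, and the stress gene Trp53inp1 both stood at -0.79 (± 0.05 and ± 0.07). Sesn1 was higher (0.49 ± 0.05). Eda2r, a receptor of the TNF receptor family, went against most of the list: it read 7.15, 7.43, 7.04 and 6.96 in control and 9.57, 9.44, 9.46 and 9.41 in knockdown arrays, which is 2.33 ± 0.09 or 5.01-fold (limma adjusted p = 2.18e-12), wider than with vehicle by 1.02. Txnip, an inhibitor of thioredoxin outside these lists, was lower (-0.56 ± 0.06) under MG132 although higher with vehicle (0.40), and the change passed (-0.96, limma adjusted p = 1.4e-06).

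**Figure D3:**
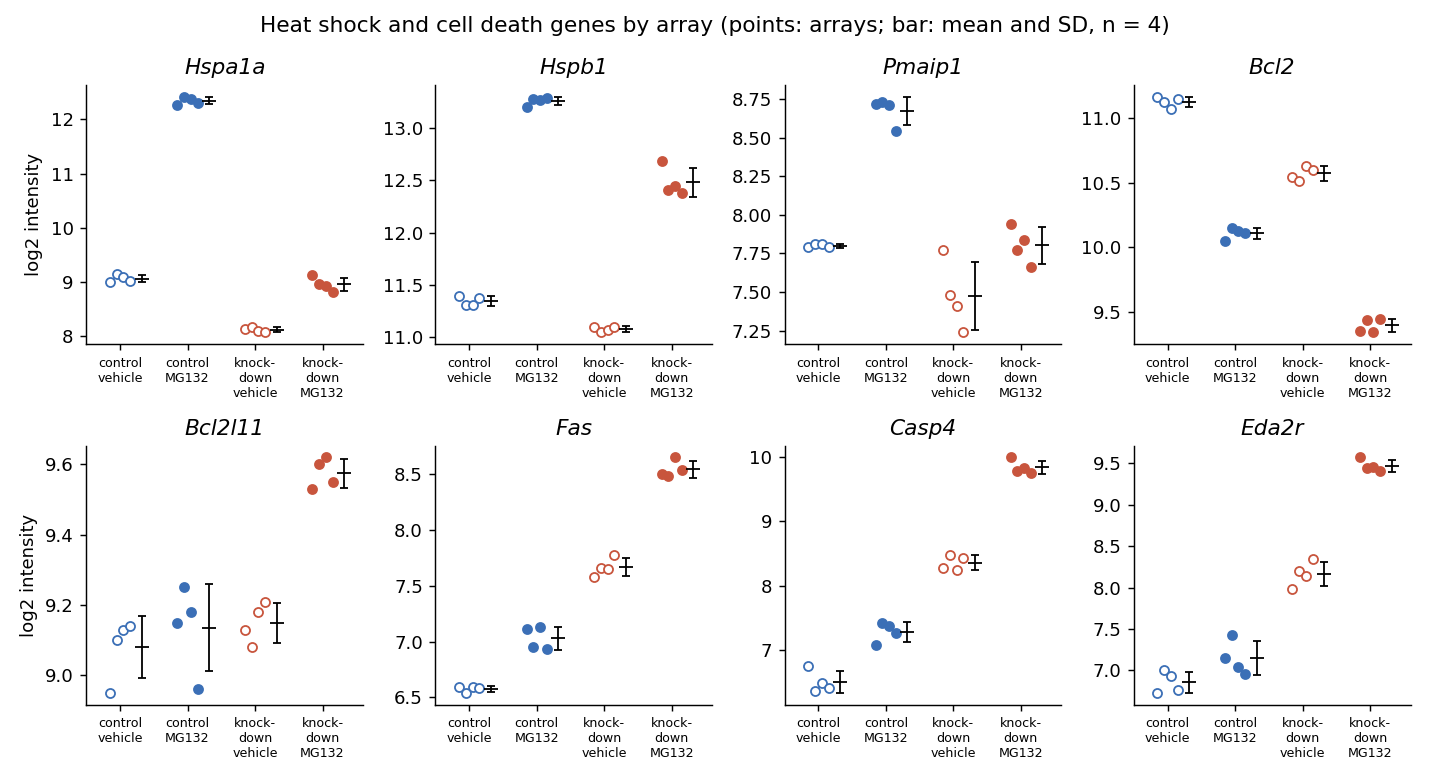
Log2 intensity (y axis, scaled to each gene) of 8 heat shock and cell death genes on each of the 16 arrays, open points with vehicle, filled points with MG132, black bars the mean ± SD of 4 arrays. Under MG132 Hspa1a, Hspb1, Pmaip1 and Bcl2 are lower in all 4 knockdown arrays than in any control array, and Bcl2l11, Fas, Casp4 and Eda2r are higher.

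Inflammatory genes leaned higher. Of 26 genes of the NF-kappaB pathway and chemokines 20 were higher and 1 lower, with a median of 0.49. Vcam1, a leukocyte adhesion receptor, read 8.69, 8.81, 8.61 and 8.66 in control and 11.50, 11.62, 11.73 and 11.62 in knockdown arrays, a 7.59-fold difference (limma adjusted p = 2.09e-16). Ccl2, a monocyte chemokine, read 11.47, 11.39, 11.38 and 11.53 against 13.04, 13.03, 12.95 and 12.98. The gap of 1.56 ± 0.05 was narrower than the 3.18 with vehicle (change -1.62, limma adjusted p = 8.1e-10). Cxcl5 (2.37 ± 0.06), Ccl5 (1.31 ± 0.05) and Cxcl10 (0.71 ± 0.07) were higher too. The pathway's inhibitor Nfkbia (0.57 ± 0.04) and its subunit gene Nfkb2 (0.50 ± 0.03) also had narrower gaps than with vehicle (changes of -0.65 and -0.52). Within this list the change in the line difference passed for 13 genes towards lower and 4 towards higher values. Over all genes the shares were 10.1% and 4.45%. Ptgs2, the inducible cyclooxygenase, was one of the 4: it was lower in knockdown cells with vehicle (-0.78) and higher under MG132 (0.16 ± 0.04).

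Interferon-stimulated genes showed the same leaning, with 18 of 24 higher and 1 lower (median 0.53). Without control array 3 there were 3 lower, and without knockdown array 3 or knockdown vehicle array 1 there were 2. Rsad2, the antiviral enzyme viperin, read 7.01, 7.09, 7.21 and 6.97 in control and 9.34, 9.45, 9.12 and 9.00 in knockdown arrays. It was 4.46-fold higher, against a difference of 0.64 with vehicle, and the widening of 1.52 passed (limma adjusted p = 2.6e-07). Oasl2 (1.79 ± 0.09), the RNA sensor gene Ddx58 (1.16 ± 0.05) and Isg20 (0.89 ± 0.04) were higher as well. In this list the line difference moved down with MG132 in 9 of 24 genes and up in 2. Over all genes the shares were 10.1% and 4.45%. Rsad2 was thus in the list's minority, and the gaps of Ddx58 and Isg20 narrowed (changes of -0.45 and -0.18, limma adjusted p = 0.000356 and 0.049). Of 11 immunoproteasome and antigen processing genes 8 were higher and 0 lower (median 0.40) by limma, and 0 were lower at an unadjusted p under 0.05 or without moderation. The lowest member stood at 0.08. Among these were the peptide trimming enzyme Erap1 (0.71 ± 0.07), the peptide loading gene Tapbp (0.69 ± 0.05), the transporter Tap1 (0.54 ± 0.06) and the proteasome activator Psme2 (0.40 ± 0.04). A probe set that Psme2 shares with Psme2b differed by 0.08 (exact two-sided permutation p = 0.0857), and by -0.44 with vehicle. Probe sets that Tapbp shares with Rps3a1 differed by -0.02 and -0.04 (exact two-sided permutation p = 0.514 and 0.2). Of the 11 macrophage markers only Cd14 was called, and the other 10 differed by -0.08 to 0.12.

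Immediate early and AP-1 genes were mixed: 8 of 28 were higher and 10 lower (median -0.02). Ier5 (0.52 ± 0.04), Ier3 (0.52 ± 0.05), the small MAF gene Mafk (0.50 ± 0.04) and Fosl1 (0.48 ± 0.03) were higher. Dusp4, a phosphatase that switches off MAP kinases, was lower (-1.07 ± 0.05), less so than with vehicle (-2.23). Egr1 read 7.75, 7.60, 7.59 and 7.80 in control and 8.03, 8.09, 7.94 and 8.03 in knockdown arrays, a gap of 0.34 ± 0.05 where vehicle had 1.17. In this list 16 of 28 line differences moved up with MG132 and 4 moved down by the test, against 4.45% and 10.1% of all genes.

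**Figure D4:**
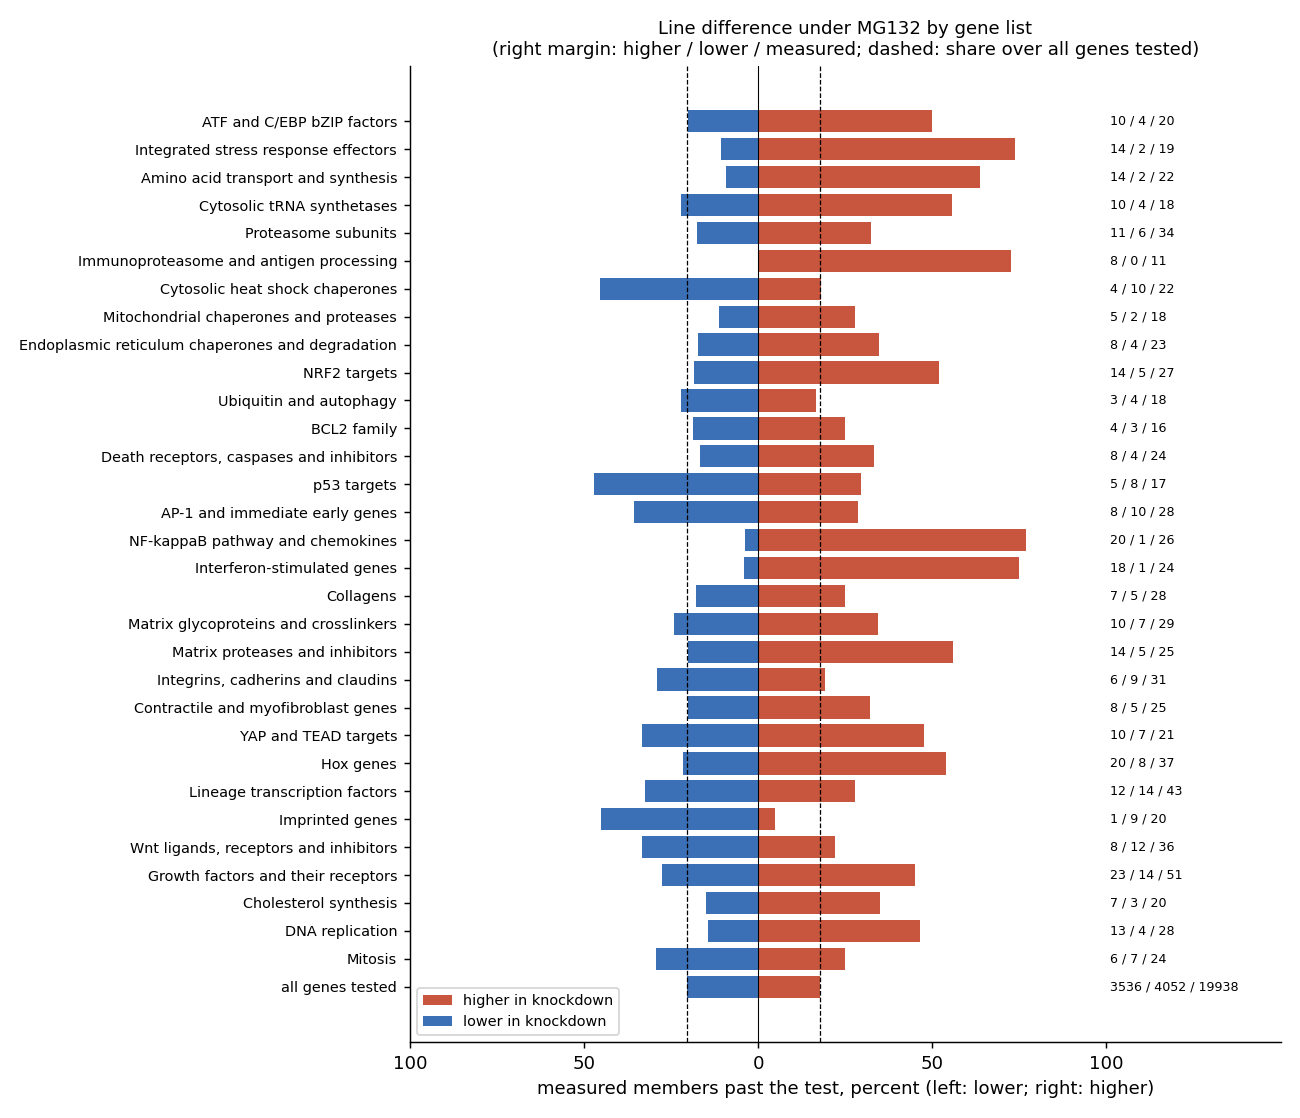
Bars give the percent of each list's measured members called higher (right) or lower (left) in knockdown cells under MG132, with the counts at the right margin, and dashed lines give the shares over all 19938 genes (17.7% and 20.3%). The NF-kappaB, interferon and integrated stress response lists extend farthest to the right, and the p53, heat shock and imprinted lists farthest to the left.

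Matrix genes were called in both directions, and the proteases and their inhibitors leaned higher. Of 28 collagen genes 7 were higher and 5 lower (median 0.04). The basement membrane chains Col4a1, with 8.74, 8.65, 8.61 and 8.78 against 10.13, 10.12, 10.20 and 10.13, and Col4a2 were both higher (1.45 ± 0.04 and 1.44 ± 0.05). Col8a1 (0.73 ± 0.03) was higher and Col6a3 (-0.93 ± 0.03) lower. Among 29 matrix glycoproteins and crosslinkers 10 were higher and 7 lower. Nid1, which links laminin to collagen IV, was higher (1.48 ± 0.03), while Tnc, an adhesion-modulating glycoprotein, was 3.65-fold lower and Fbln2 2.08-fold lower. Of 25 matrix proteases and inhibitors 14 were higher and 5 lower (median 0.33). Adam8 (1.78 ± 0.06) and Adam19 (0.87 ± 0.04) were higher, and Adam12 (-1.69 ± 0.08) and the gelatinase Mmp2 (-0.85 ± 0.04) lower.

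Adhesion and contractile genes were also mixed. Of 31 integrins, cadherins and claudins 6 were higher and 9 lower (median 0.00). Cldn1, a tight junction protein, read 9.24, 9.34, 9.42 and 8.83 in control and 6.44, 6.54, 6.14 and 5.92 in knockdown arrays, a difference of -2.95 ± 0.13. The knockdown values were nearly as dim as the Y-linked genes, so the size of this difference is uncertain. The cadherins Cdh3 (-1.36 ± 0.04) and Cdh2 (-0.79 ± 0.03) were lower and Cdh11 (1.25 ± 0.07) was higher. Probe sets that Cdh11 shares with 6820431F20Rik and 2610005L07Rik differed by only 0.07, 0.11 and 0.08. Of 25 contractile genes 8 were higher and 5 lower (median 0.06). Tagln, an actin-binding smooth muscle marker, stood at 11.84, 11.87, 11.88 and 11.82 in control and at 9.96, 9.91, 10.06 and 9.89 in knockdown arrays (-1.90 ± 0.06), while the light chain gene Myl9 was higher (1.28 ± 0.05). Smooth muscle markers as a list were lower in 4 of 9, and their part in the contractile result was not tested. Of 21 genes of the YAP and TEAD pathway, which answers to cell tension, 10 were higher and 7 lower (median 0.07). The 21 are targets together with the regulators Yap1, Wwtr1 and Tead1. F3, the tissue factor gene, was higher (1.14 ± 0.05) and Nt5e lower (-1.12 ± 0.04). Ankrd1 (0.86 ± 0.05) and Ccn1 (0.57 ± 0.04) were higher under MG132 but lower with vehicle (-0.14 and -0.12), and both changes passed.

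Genes that mark position along the body separated the lines. All 9 measured Hoxc genes were higher, with a median of 2.03. Hoxc8 read 7.66, 7.30, 7.16 and 7.63 in control and 10.57, 10.65, 10.75 and 10.60 in knockdown arrays, a 9.22-fold difference. Hoxc6 (2.81 ± 0.09) and Hoxc9 (2.58 ± 0.07), its cluster neighbours, followed, and Hoxc4, with a dim control mean of 5.87, was the least different (0.67 ± 0.07). In the Hoxd cluster 0 of 9 were higher and 3 lower by limma (0 higher too at an unadjusted p under 0.05 or without moderation), led by Hoxd8, with 8.88, 9.13, 9.06 and 8.74 against 6.51, 6.43, 6.48 and 6.52 (-2.47 ± 0.08), and Hoxd9 (-1.15 ± 0.07). The Hoxa and Hoxb clusters had 6 higher and 2 lower of 10, and 5 higher and 3 lower of 9. Over all 37 Hox genes 20 were higher and 8 lower (median 0.17). For 12 the line difference was less positive or more negative under MG132 than with vehicle, and 1 moved the other way. Over all genes the shares were 10.1% and 4.45%. Hoxc8 was among the 12 (-1.12, limma adjusted p = 0.000105). Hoxa7 turned from higher (0.33) to lower (-0.19 ± 0.04).

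Lineage factors and imprinted genes held several of the largest gaps. Of 43 lineage transcription factors 12 were higher and 14 lower (median -0.02). Beside Pax8 and Tbx20, Gata6 was lower (-1.15 ± 0.03) and Pax3, a neural crest and muscle factor, was 4.48-fold higher. Imprinted genes, expressed from 1 parental copy, were lower in 9 and higher in 1 of 20 (median -0.08), or higher in 2 without control array 2. Grb10, a growth-restricting adaptor, read 12.59, 12.58, 12.66 and 12.57 in control and 9.93, 9.81, 9.91 and 9.91 in knockdown arrays, a 6.54-fold difference. Peg10 was lower too (-1.17 ± 0.04). Mest was the 1 higher gene (1.46 ± 0.07). The adipocyte regulator Pparg was 3.12-fold lower.

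In Wnt signalling 8 of 36 ligands, receptors and inhibitors were higher and 12 lower (median -0.04). The receptor Fzd6 was 2.72-fold lower, Fzd2 (-0.57 ± 0.05) and the inhibitor Dkk2 (-0.56 ± 0.06) were lower, and the co-receptor Lrp5 was higher (1.24 ± 0.05). Growth factors and their receptors were called often, 23 of 51 higher and 14 lower (median 0.06). Beside Gas6, the lymphatic growth factor Vegfc was 4.87-fold higher, with 7.21, 7.28, 7.41 and 7.14 against 9.56, 9.62, 9.49 and 9.51. Kitl, the ligand of the KIT receptor, was 3.26-fold higher and Igfbp4, which binds insulin-like growth factors, 3.38-fold lower. Vegfa, which is also an integrated stress response gene, was higher by 0.21 ± 0.03 under MG132 and lower with vehicle (-0.17), and the change of 0.39 passed.

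Growth and sterol genes differed by small amounts. Of 28 DNA replication genes 13 were higher and 4 lower (median 0.10), with the polymerase gene Pola1 at 0.50 ± 0.06 and the helicase gene Mcm6 at 0.27 ± 0.03 against Prim1 at -0.30 ± 0.05. Mitosis genes were called in both directions, 6 higher and 7 lower of 24 (median -0.02). The kinetochore gene Ndc80 (-0.42 ± 0.04) and the checkpoint kinases Ttk (-0.39 ± 0.04) and Bub1 (-0.28 ± 0.04) were lower. For 10 of the 24, and for 9 of the replication genes, the line difference was shifted downwards by MG132. It was shifted upwards for 0 of either list by limma, also at an unadjusted p under 0.05 or without moderation. Over all genes 10.1% moved downwards and 4.45% upwards. Of 20 cholesterol synthesis genes 7 were higher and 3 lower (median 0.06). Msmo1 (0.40 ± 0.04) was higher and Stard4 (-0.34 ± 0.04) lower. In 11 of these 20 the line difference moved upwards with MG132, against 4.45% of all genes. It moved downwards in 0 by limma, against 10.1% of all genes, or in 3 at an unadjusted p under 0.05 and 0 without moderation.

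The genes whose line difference moved most with MG132 were named by size in both directions. Upward, Cldn1 led: its deficit shrank from -4.96 with vehicle to -2.95 (change 2.01 ± 0.19, limma adjusted p = 2.76e-06). Its knockdown arrays under MG132 were nearly as dim as the Y-linked genes, so the size of this change is uncertain. Edn1, the endothelin precursor, changed sign. It read 8.06, 8.19, 8.11 and 8.03 in control and 8.86, 8.90, 8.92 and 8.78 in knockdown arrays under MG132, a difference of 0.77 ± 0.04, where vehicle had -1.10. Mycn, a growth-promoting factor of the MYC family, differed by -2.02 with vehicle and by -0.19 ± 0.07 under MG132, with 7.79, 7.67, 7.80 and 7.89 against 7.62, 7.69, 7.46 and 7.61, which overlap. That difference under MG132 missed the threshold without control array 1, 3 or 4 or without knockdown array 3 (limma adjusted p 0.0554 to 0.107). The potassium channel gene Kcnf1 (1.27), Dusp4 (1.16) and the ligand Wnt7b (1.13) likewise lost part of a deficit. Ifi203 (1.79) and Rsad2 (1.52) instead gained on an excess.

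Downward, Hspa1a led (-2.44), its deficit growing on the probe set used. The probe set shared with Hspa1b had nearly the same deficit under MG132 (-1.25) as with vehicle (-1.09). Tmem119, a membrane protein of bone and other mesenchymal cells, fell from an excess of 2.47 to 0.82 ± 0.09, with 7.72, 7.50, 7.80 and 7.89 in control against 8.40, 8.58, 8.65 and 8.56 in knockdown arrays. The matrix gene Aspn (change -1.40), the proteoglycan enzyme gene Pxylp1 (-1.34), Sh2d1b1 (-1.26), Ccl2 and Nqo1 lost part of an excess in the same way. The remaining difference of Aspn, 0.52 ± 0.18, lay over a dim control mean of 4.88. It missed the threshold without any 1 of the 4 control arrays or without knockdown array 3 or 4, and also with every probe set tested, without moderation or with a trended robust prior (limma adjusted p 0.0514 to 0.0997). Arrdc3, an arrestin-related adaptor, changed sign: it was higher with vehicle (0.50) and lower under MG132, with 8.99, 8.99, 8.95 and 8.77 against 8.24, 8.29, 8.26 and 8.26 (-0.66 ± 0.06). In all, 79 genes turned from lower with vehicle to higher under MG132 and 116 from higher to lower, each past the threshold in both treatments and in the test of the change.

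**Figure D5:**
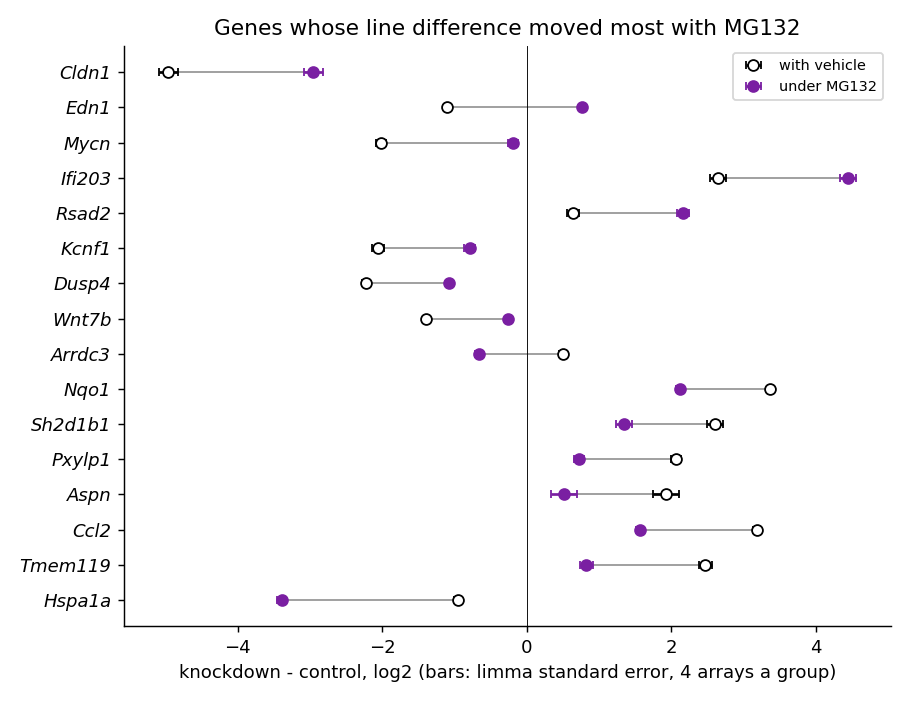
Line difference (knockdown minus control, log2, x axis; bars are limma standard errors, 4 arrays a group) of the 8 genes moved farthest up and the 8 moved farthest down by MG132, open points with vehicle and filled points under MG132. Edn1 and Arrdc3 cross 0, Hspa1a on the probe set used moves away from 0, and Cldn1, Ccl2 and Nqo1 move towards it.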

How the data were processed

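Total RNA of fibroblasts, grown in 16 plates per the labels' protocols, was hybridised to 16 Affymetrix whole-transcript mouse arrays. The authors deposited log2 intensities for each probe set. RMA and Partek appear, with no version or settings, in the submitters' processing notes. RMA equalises array distributions, so a shift of most genes one way would be hidden, and dim or very bright probe sets can be compressed. The number of arrays limits the precision.

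Of 35556 probe sets 21789 carried 1 gene symbol in the platform's annotation, and 21698 of those matched RefSeq's gene table (GRCm38.p6). Where a gene had several (999 genes), the one with the highest mean over 16 arrays was kept, which left 19938 genes. limma 3.58.1 in R 4.3.3 (lmFit, eBayes, 12 residual and 4.12 prior degrees of freedom) fitted 4 group means to all 16 arrays, two-sided, with Benjamini-Hochberg adjustment and calls made under 0.05. After the main fit, simulated arrays with known changes were run through the same code. Their noise was drawn independently for each gene and array, unlike any noise that real arrays share. Named were the 15 highest and 15 lowest differences without overlap of the arrays and the 8 highest and 8 lowest changes with MG132 (both skipping gene models, accession-like names, olfactory and vomeronasal receptors, small RNAs and pseudogenes), from every list up to 4 members by smallest p, a stress panel, and 31 genes chosen after their values were seen. The members and the 31 pathway and 8 marker lists were chosen with earlier results of these data known. Motifs were searched in RefSeq promoter windows, and figures were drawn in Python 3.11.15 (matplotlib 3.10.9).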

Additional observations from a re-analysis of the deposited data

Results flagged for a closer look

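For 41 of the 43 genes whose change is given above, the difference between the lines was not the same with and without MG132 by the limma test of that change. These 43 were mostly printed because the change passed; it passed for 104 of the 186 genes named, and for 14.6% of all genes. The change is the line difference under MG132 minus that with vehicle, in log2 units. It was upward without a change of sign for Cldn1 (2.01), Mycn (1.83), Ifi203 (1.79), Rsad2 (1.52), Kcnf1 (1.27), Dusp4 (1.16), Wnt7b (1.13), Ifi202b (1.09), Eda2r (1.02), Casp4 (0.70), Fas (0.42), Bcl2l11 (0.37) and Ppp1r15a (0.35). It was downward without a change of sign for Hspa1a (-2.44), Tmem119 (-1.65), Ccl2 (-1.62), Aspn (-1.40), Pxylp1 (-1.34), Sh2d1b1 (-1.26), Nqo1 (-1.25), Hoxc8 (-1.12), Slc7a3 (-1.07), Egr1 (-0.83), Nupr1 (-0.65), Nfkbia (-0.65), Ddit3 (-0.57), Pmaip1 (-0.55), Nfkb2 (-0.52), Hspb1 (-0.51), Hspa4l (-0.43), Trib3 (-0.37) and Hspb8 (-0.32). The fitted line difference had opposite signs in the 2 conditions for Arrdc3 (-1.16), Txnip (-0.96), Slc7a11 (-0.94), Hoxa7 (-0.52), Vegfa (0.39), Ccn1 (0.69), Ptgs2 (0.94), Ankrd1 (1.00) and Edn1 (1.87).

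Of 372 groups of 4 arrays examined for the named genes, 14 held 1 array apart from the other 3 by Dixon's criterion, where chance gives about 1 in 20. Array 4 of the control group was the one apart in 7 of them. It read 8.54 for Pmaip1, 12.42 for Kars, 11.18 for Psme2, 9.75 for Hspa2, 7.63 for Oasl2, 8.97 for Kitl and 8.59 for Cflar. Array 1 of the control group read 6.18 for Sh2d1b1. Among the knockdown arrays, array 3 read 12.29 for Atf3, 13.51 for Asns, 11.76 for Tnfrsf1a and 10.20 for Col4a1, and array 2 read 11.65 for Col8a1 and 9.81 for Grb10. The criterion was applied to values rounded to 2 decimals, so small gaps could pass where the other arrays tied. The nearest array read 11.66 for Col8a1, 13.49 for Asns and 9.78 for Hspa2.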

How the results depend on the processing

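The number of genes called depended most on a minimum size. With a minimum of 1.5-fold, 677 genes were higher and 564 lower under MG132, 901 higher and 525 lower with vehicle, and the change passed upwards for 91 and downwards for 115. Leaving out 1 array at a time gave 3280 to 3605 higher and 3684 to 4168 lower under MG132, 3990 to 4419 and 3200 to 3779 with vehicle, and 748 to 992 upward and 1520 to 2401 downward changes. Median centring gave 3708 higher and 3576 lower under MG132, a share of 50.9% higher against 46.6%. For the change it gave 686 upward and 1695 downward. Quantile normalization repeated gave 1091 and 1680, and array weights gave 1332 and 2763. The upward share of called changes was 28.8% with median centring and 39.4% with quantile normalization repeated, against 30.6%. The replicate numbers did not pair the arrays: the deviations of same-numbered MG132 arrays correlated at 0.08, -0.25, 0.10 and -0.20, and 1 of 4 controls correlated best with its own number. With the replicate block 3475 genes were higher and 4023 lower under MG132. The chaperonin genes Hspd1 and Hspe1, both near 0, changed sign. Hspd1 reached 0.00 from below with median centring, and ranged from -0.02 to 0.00 when 1 array was left out. Hspe1 stood at -0.01 when its probe sets were averaged and without both control array 4 and knockdown array 2, an alternative chosen after seeing the data, and ranged from -0.02 to 0.04 when 1 array was left out. The cause was not tested.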
